A study of Homo sapiens with 10 samples.

Results

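The actin cytoskeleton and SRF-linked genes are a list of 47 genes that encode actins, the proteins that bundle, cross-link, move and anchor actin filaments, and the transcription factor SRF with its co-activators. A listed gene was measured where the array annotation gave at least 1 probe set (a set of short probes read together as 1 value) to that gene symbol and no other. This held for 42 of the 47, out of 19775 genes measured in all. Their 120 probe sets gave more than 1 reading for 31 genes and 1 reading for 11. Each gene is described by its brightest probe set, averaged over all arrays, with its other probe sets beside it. TPM3, FLNA, FLNC and FHL1 were not analysed here, and ACTG1 shares all its readings with ACTB.

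The cells were HuCCT1, an established line of human bile duct cancer (cholangiocarcinoma). One group carried an empty vector and the other a vector for YAP1, the co-activator held back by the Hippo kinase cascade. Each group had 5 arrays and no drug treatment is named. The sample labels call the construct YAPS94A, a change known to weaken binding to the TEAD transcription factors, whereas the design text names the constitutively active S127A, so the construct is called YAPS94A here after its sample label. The labels do not say whether the vector was kept as a clone or a pool, nor whether each array had its own culture. The p-values therefore reflect only how far these arrays scatter, and that scatter may be technical.

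Actin filaments assemble from monomers, are tied into bundles and networks by cross-linkers, and contract when myosin, switched on by phosphorylation of its regulatory light chain, pulls on them. Free actin monomers hold the co-activators MRTFA and MRTFB in the cytoplasm. When monomers are used up by polymerisation, the co-activators enter the nucleus and, with SRF, switch on many genes of the cytoskeleton itself, through a DNA element called the CArG box. YAP1 is known to respond to actin tension, and many epithelial cells and cancers of epithelial origin depend on these genes for shape, adhesion and movement.

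The CArG box is CC and GG around 6 bases that are each A or T, and reads the same way on both strands. In RefSeq promoter windows of the build GRCh38.p14, which run from 250 bases before to 50 bases after a transcript start, 41 of the 47 genes had at least 1 window and 19 had several. A CArG box stood in the windows of 11 of these 41 genes (26.83%), against 438 of all 27305 genes with windows (1.6%). Counted by window, it stood in 13 of the 82 windows of the listed genes (15.85%) and in 1.29% of all 35116. The list was drawn up as SRF-linked, so this share describes the list. The binding core of the TEAD partners of YAP1, CATTCC on either strand, stood in the windows of 15 of the 41 genes (36.6%) and of 16.7% of all genes with windows. Listed genes have more windows each, and by window the shares were 20.7% and 14.0%. CATTCC cannot lie wholly inside a CArG box. A match is a run of letters and not evidence of binding.

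These stretches are shown because they set a gene with a large rise beside genes with boxes that rose, fell or did not pass the test. Capitals mark the boxes, and all of the bases lie before the transcript start. The stretch of ACTA2 (chr10:88952805-88952924, minus strand) holds no full CArG box but 2 CArG-like boxes, in which exactly 1 of the 6 inner bases is C or G. CArG-like boxes stood in the windows of 6 of the 41 listed genes (14.6%) and of 8.5% of all genes with windows, or in 9.8% and 6.9% of windows. MYLK (chr3:123620603-123620672, minus strand) and FHL2 (chr2:105399071-105399140 for start A and chr2:105438575-105438644 for start B, both minus strand) rose. MYLK had 1 window, and which of its transcripts starts there was not examined. SRF (chr6:43171209-43171268, plus strand) fell and carries 2 boxes in its own promoter. ACTG2 (chr2:73892868-73892974, plus strand), with 2 boxes, and CNN2 (chr19:1026489-1026558, plus strand) did not pass the test.
ACTA2: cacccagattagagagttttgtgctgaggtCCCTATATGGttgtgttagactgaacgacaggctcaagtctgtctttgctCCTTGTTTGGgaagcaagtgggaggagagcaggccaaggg
MYLK: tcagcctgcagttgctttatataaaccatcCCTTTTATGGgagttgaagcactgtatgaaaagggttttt
FHL2 start A: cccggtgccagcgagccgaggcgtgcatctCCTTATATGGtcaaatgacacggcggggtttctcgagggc
FHL2 start B: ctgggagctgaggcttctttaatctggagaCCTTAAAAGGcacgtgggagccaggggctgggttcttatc
SRF: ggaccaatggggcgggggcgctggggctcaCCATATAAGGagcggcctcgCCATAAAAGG
ACTG2: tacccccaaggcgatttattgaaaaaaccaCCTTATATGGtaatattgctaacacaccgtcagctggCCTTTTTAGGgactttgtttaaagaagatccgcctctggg
CNN2: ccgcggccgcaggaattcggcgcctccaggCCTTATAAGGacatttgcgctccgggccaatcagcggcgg

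The listed genes did not move as a block. LCP1 fell most and ACTA2 rose most, while most others changed by little: of the 42 measured genes, 9 were higher with YAPS94A, 8 were lower and 25 did not pass the test. The test was limma on the log2 signals, with p-values adjusted over all 19775 genes and a threshold of 0.05. The 17 genes that passed are 40.5% of the list, near the 36.3% of all genes that passed, which divide into 18.6% higher and 17.6% lower. The 5 arrays of each vector did not overlap for 16 of the 42 genes, and for 29.1% of all genes. Of the 35 listed genes above the median level of all genes, 14 passed (40.0%), against 52.4% of all genes above that level. The median difference over the list was -0.011 on the log2 scale, and -0.004 over all genes. Its median size without regard to sign was 0.093, and 0.102 over all genes. A difference of at least 1 log2 unit was seen in 4 of the 42 genes (9.52%), ACTA2, TLN2, LCP1 and TPM2, and in 3.27% of all genes. A difference under 1.5-fold was seen in 36 of the 42, and in 18135 of all 19775 genes.

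**Figure D1:**
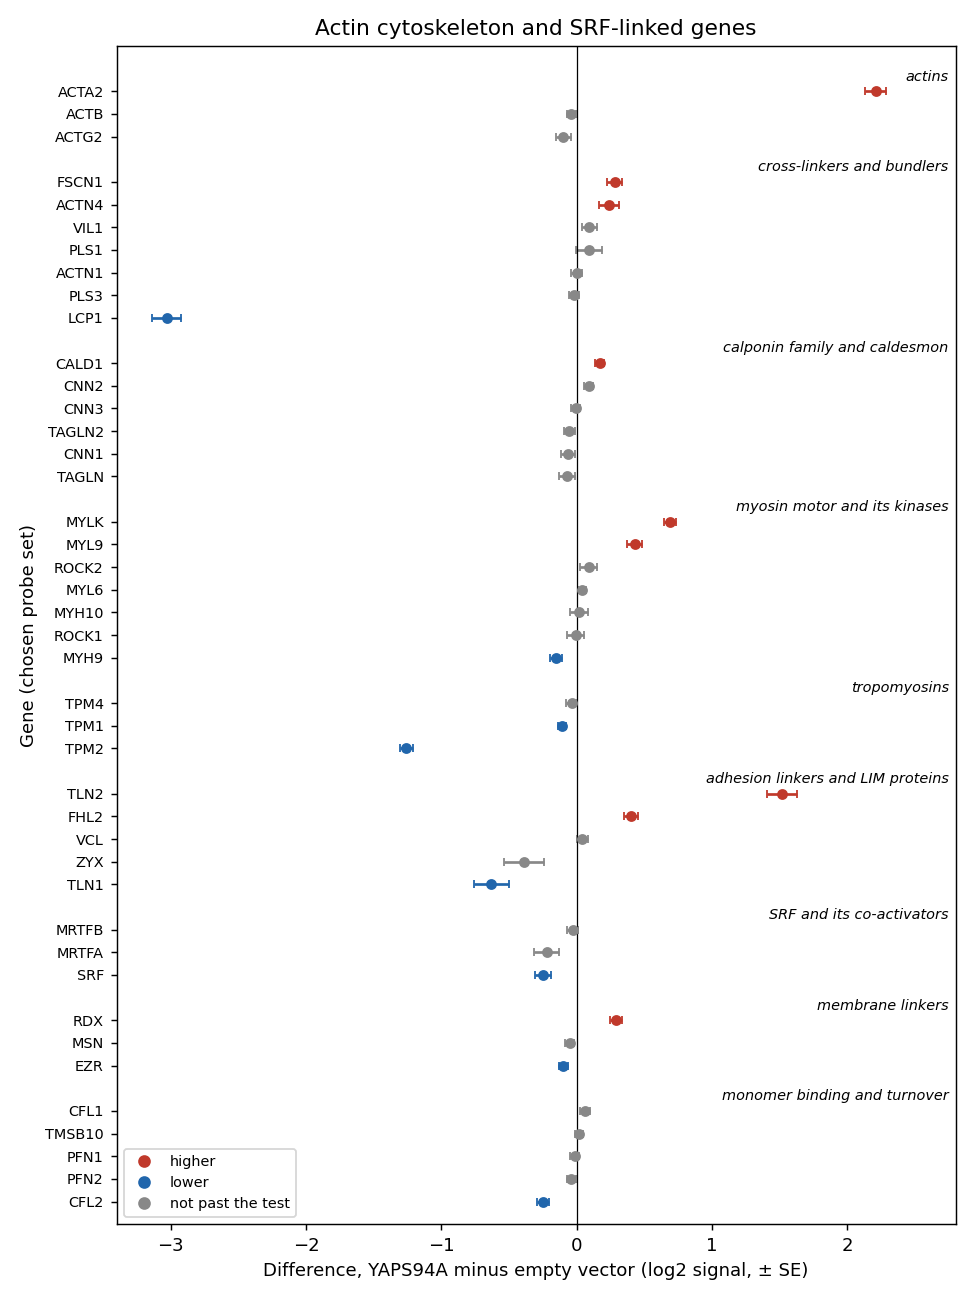
Difference between vectors (YAPS94A minus empty vector, log2 signal, ± SE) of the 42 measured genes, in groups by role. Points are red for genes past the test and higher, blue for genes past it and lower, and grey for the rest. LCP1 at -3.03, TPM2 at -1.26, TLN2 at 1.52 and ACTA2 at 2.21 stand apart from the others, which lie between -0.63 and 0.69.

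Levels below are log2 signals, on which 1 unit is a 2-fold step, and the signals on these arrays ran from 2.86 to 14.43. A difference is YAPS94A minus empty vector with its standard error (SE) from the fit. A level serves only to compare arrays for the same gene, because probe sets of different genes do not read on a common scale.

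Among the actins read, ACTA2 rose and ACTG2 and ACTB did not pass. ACTA2 encodes the smooth muscle alpha-actin that also marks contractile fibroblasts. Its arrays 1 to 5 read 5.98, 5.90, 6.14, 5.71 and 5.74 with empty vector. With YAPS94A the same probe set read 8.13, 8.17, 8.09, 8.13 and 8.02. All 5 construct arrays lay above all 5 controls, and the construct arrays were closer together (SD 0.058) than the controls (SD 0.18). The difference was 2.21 ± 0.076, or 4.64-fold (adjusted p = 8.4e-10). Both other ACTA2 probe sets were dim, with means of 3.94 to 4.91, and differed by -0.00 and 0.07. The rise therefore rests on 1 probe set.

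ACTG2, the gamma-actin of visceral smooth muscle, differed by -0.097 ± 0.054 (adjusted p = 0.199) at a mean of 6.06 with empty vector. ACTB, the main actin of non-muscle cells, read 14.16, 14.18, 14.20, 14.22 and 14.15 with empty vector. With YAPS94A it read 14.15, 14.15, 14.17, 14.12 and 14.11. The groups overlapped and the difference was -0.039 ± 0.031 (adjusted p = 0.385). These levels lie close to the highest signal on the arrays (14.43), and whether differences are compressed there was not tested. ACTG1, the cytoplasmic gamma-actin, is read only by 9 probe sets that also carry the ACTB name. Those 9 had group means of 13.84 to 13.93 and differed by -0.03 to -0.02.

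The serum response factor itself fell slightly. SRF read 9.67, 9.61, 9.48, 9.37 and 9.48 with empty vector and 9.20, 9.39, 9.22, 9.29 and 9.24 with YAPS94A. The highest construct array (9.39) lay just above the lowest control (9.37). The difference was -0.25 ± 0.059 (adjusted p = 0.00478), and the second SRF probe set fell alike, by -0.23 ± 0.07. The co-activator MRTFA read 8.29, 8.19, 8.10, 7.76 and 8.06 with empty vector, and 7.87, 8.04, 7.85, 7.83 and 7.71 with YAPS94A. Control array 4 lay among the construct arrays, and the difference of -0.22 ± 0.092 did not pass (adjusted p = 0.0879). It passed in the fit blocked on array number (0.0333) and without control array 4 (0.00609) or construct array 2 (0.0439). With the measure of RNA quality described below as a covariate it also passed (-0.175, adjusted p = 0.0378). The other 4 MRTFA probe sets differed by -0.09 to 0.07.

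MRTFB, the related co-activator, read 11.86, 11.86, 11.77, 11.81 and 11.75 with empty vector and 11.77, 11.87, 11.78, 11.74 and 11.74 with YAPS94A. These groups overlapped almost entirely, at a difference of -0.03 ± 0.04 (adjusted p = 0.623). A dim MRTFB probe set (4.82 with empty vector) differed by -0.31 ± 0.076 and passed over all probe sets.

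Cross-linkers and bundlers held the deepest fall of the list. LCP1 encodes L-plastin, an actin bundler of blood cells that many carcinomas also make. It read 9.18, 9.48, 9.30, 9.01 and 9.18 with empty vector and 5.81, 6.35, 6.33, 6.35 and 6.15 with YAPS94A. The lowest control lay far above the highest construct array. The fall was -3.03 ± 0.11, or 8.17-fold (adjusted p = 1.51e-09), on the only LCP1 probe set. The other plastins did not pass, with PLS1 (I-plastin, of the brush border) at 0.091 ± 0.097 and PLS3 (T-plastin, of solid tissues) at -0.017 ± 0.036.

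FSCN1, the bundler fascin of filopodia, rose by 0.28 ± 0.058 (adjusted p = 0.0027). Its 5 construct arrays read 11.50 to 11.66 and its controls 11.16 to 11.42. ACTN4, an alpha-actinin of non-muscle cells, rose by 0.24 ± 0.074 (adjusted p = 0.0263), with construct arrays at 11.73 to 12.02 that overlapped controls at 11.44 to 11.75. Its call was lost without any one of control arrays 3, 4 and 5 (adjusted p = 0.0617 to 0.064) and without construct array 2 (0.051). The closely related ACTN1 read 13.13 in both groups. The villus bundler VIL1, dim at a mean of 5.3 with empty vector, differed by 0.095 ± 0.058.

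Blood cell markers were read beside LCP1. Of 6 listed, 4 were measured, of which LYZ, the lysozyme gene, fell by 1.48 ± 0.12 and the other 3 did not pass. The LYZ call held in 21 of 22 alternative settings of the processing, with a highest adjusted p of 0.309. PTPRC, the pan-leukocyte marker CD45, read 5.25 with empty vector and 5.18 with YAPS94A. The summed signal of the 4 ranged from 7.94 to 8.09 with empty vector and from 7.46 to 7.60 with YAPS94A on the log2 scale. Their part in the LCP1 result was not tested.

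**Figure D2:**
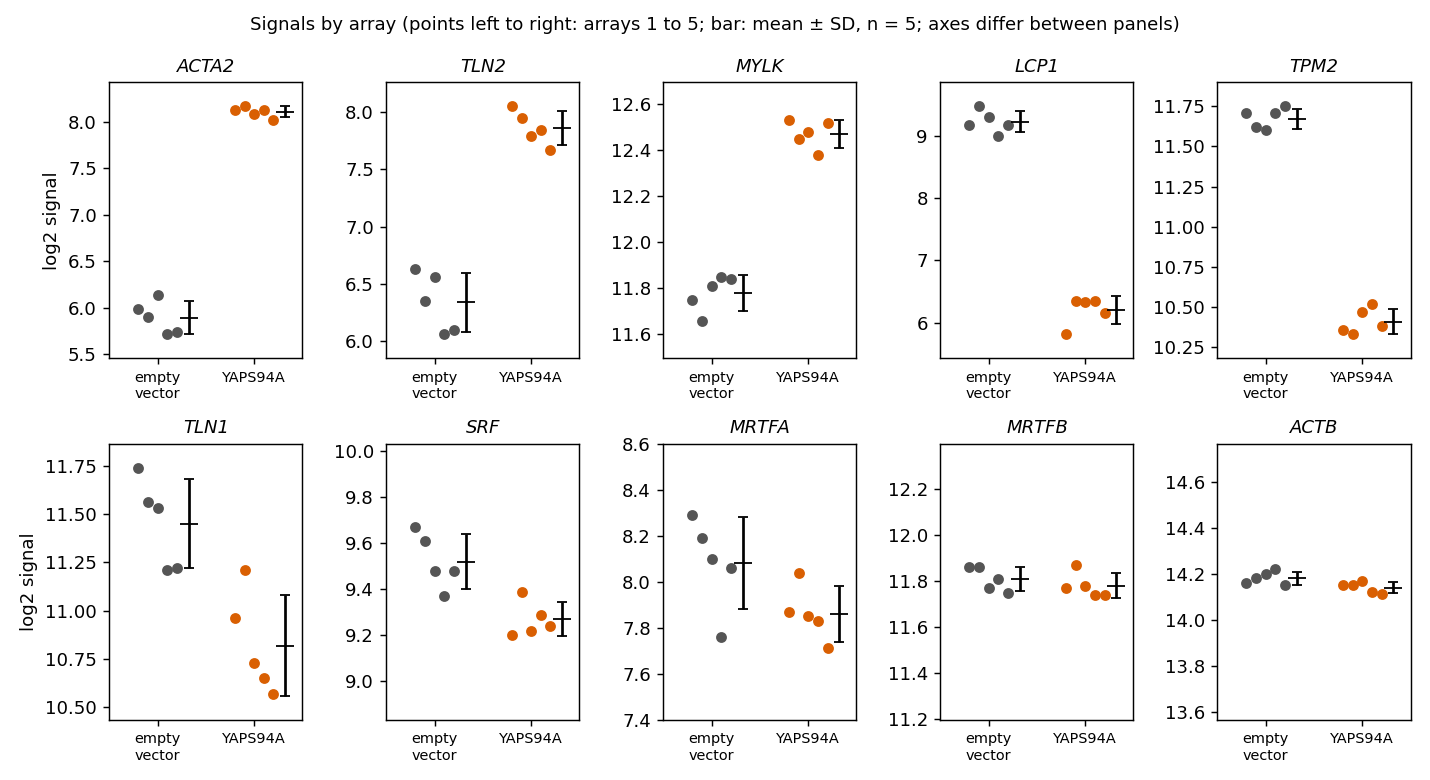
Log2 signal on each array for 10 genes, with the arrays numbered 1 to 5 from left to right in each group and the mean ± SD (n = 5) beside them. The groups are apart for ACTA2, TLN2, MYLK, LCP1, TPM2 and TLN1, and overlap for SRF, MRTFA, MRTFB and ACTB.

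The tropomyosins, which wind along filaments and govern access of myosin, fell where they passed. TPM2, the beta-tropomyosin, read 11.71, 11.62, 11.60, 11.71 and 11.75 with empty vector. With YAPS94A it read 10.36, 10.33, 10.47, 10.52 and 10.38. The groups were far apart against an SD of 0.064 and 0.079, and the fall was -1.26 ± 0.048, or 2.40-fold (adjusted p = 1.8e-09). Of the 3 dimmer TPM2 probe sets, 2 fell, with differences of -0.90 ± 0.068 and -0.48 ± 0.068, and the dimmest differed by 0.02.

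TPM1, the alpha-tropomyosin, fell by 0.11 ± 0.031 (adjusted p = 0.0163) from a mean of 13.48, on an _x_at probe set, a class of Affymetrix design that can also catch related transcripts. Of the 5 less bright TPM1 probe sets, 2 fell by more, with differences of -0.40 ± 0.046 from 10.02 and of -0.49 ± 0.11 on a dimmer one. The other 3 did not pass, at -0.17 ± 0.093, -0.08 ± 0.037 and 0.01 ± 0.060. The size of the TPM1 fall thus depends on the probe set. TPM4, of non-muscle cells, differed by -0.035 ± 0.040.

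Genes of the contractile motor and its switch went both ways. MYLK encodes the kinase that phosphorylates the regulatory light chain of myosin and so starts contraction. It read 11.75, 11.66, 11.81, 11.85 and 11.84 with empty vector, and 12.53, 12.45, 12.48, 12.38 and 12.52 with YAPS94A. All construct arrays lay above all controls, by 0.69 ± 0.047 on average, or 1.61-fold (adjusted p = 2.61e-07). Another MYLK probe set rose more, by 1.01 ± 0.051 from 9.45, and a dim one by 0.25 ± 0.056.

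MYL9, a regulatory light chain, rose by 0.43 ± 0.056 (adjusted p = 6.63e-05), from 7.12 to 7.38 on the controls to 7.62 to 7.77 on the construct arrays. Its second, dimmer probe set differed by -0.02 ± 0.045, so the 2 probe sets disagree. MYH9, the heavy chain of the main non-muscle myosin, fell by 0.15 ± 0.044 (adjusted p = 0.0176). The related heavy chain MYH10 differed by 0.017 ± 0.067, and the light chain MYL6 by 0.039 ± 0.029 with groups that did not overlap but an adjusted p of 0.351.

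The calponin family and caldesmon, which bind filaments and damp contraction, mostly did not pass. CALD1 (caldesmon) rose by 0.17 ± 0.035 (adjusted p = 0.0021), with controls at 12.12 to 12.24 and construct arrays at 12.32 to 12.39. Of its 10 other probe sets, 1 rose, by 0.36 ± 0.088, and 9 did not pass. TAGLN (transgelin, SM22), a common smooth muscle readout of SRF, differed by -0.069 ± 0.060, TAGLN2 by -0.053 ± 0.039 and the smooth muscle calponin CNN1 by -0.065 ± 0.052. CNN1 was dim, at means of 5.28 and 5.22, below the lower quartile of gene means (5.34). CNN2 and CNN3, calponins of many cell types, differed by 0.088 ± 0.035 (adjusted p = 0.0714) and -0.008 ± 0.034.

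Smooth muscle and fibroblast markers were read beside ACTA2. Of 7 smooth muscle markers 1 passed, SMTN (smoothelin), at a difference of -0.87 ± 0.11. MYH11, the smooth muscle heavy chain, read 8.44 with empty vector and 8.51 with YAPS94A (adjusted p = 0.54), and DES (desmin) read 6.79 and 6.76. The summed signal of the 7, on the log2 scale, ranged from 10.17 to 10.54 with empty vector and from 9.91 to 10.17 with YAPS94A. Its brightest member, SMTN, which went from 9.34 to 8.46, weighs most in that sum. Of 8 fibroblast markers 1 was higher and 1 lower, LUM at 2.67 ± 0.088 and PDGFRA at -0.43 ± 0.046. Their summed signal, which the brightest members dominate, ranged from 9.89 to 10.15 and from 11.13 to 11.35. LUM went from 8.04 to 10.70, while COL1A1 went from 8.83 to 8.71 and did not pass. The collagen gene COL1A2 stood at 5.23 in both groups and DCN (decorin) at 6.11 and 6.10. The part of LUM and other such markers in the ACTA2 result was not tested. The 7 epithelial and bile duct markers read 12.65 to 14.3 in both groups, and 5 of them (71.4%), KRT19 and CDH1 among them, were higher with YAPS94A. Of all genes 36.3% passed in either direction, and of those above the median level 52.4%.

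At the adhesion sites where filaments meet integrins, the talins moved in opposite directions. TLN1 and TLN2 encode talins, which activate integrins and tie them to actin. TLN2 read 6.63, 6.35, 6.56, 6.06 and 6.10 with empty vector and 8.05, 7.95, 7.79, 7.84 and 7.67 with YAPS94A. The groups did not overlap, and the rise was 1.52 ± 0.11, or 2.87-fold (adjusted p = 7.03e-07). Another TLN2 probe set rose by 1.36 ± 0.077, and a dim one differed by 0.08 ± 0.043.

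TLN1 read 11.74, 11.56, 11.53, 11.21 and 11.22 with empty vector, and 10.96, 11.21, 10.73, 10.65 and 10.57 with YAPS94A. Construct array 2 lay within rounding of control array 4, just below it, and all other construct arrays lay lower. The fall was -0.63 ± 0.13, or 1.55-fold (adjusted p = 0.00265), and a second probe set fell by 0.51 ± 0.075. The dimmest, at 5.62 with empty vector, differed by -0.05 ± 0.053.

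Spread among the TLN1 arrays of a vector went with a measure of RNA quality. The gap between the 3′ and 5′ control probe sets of ACTB, which widens when RNA is degraded or copied short, was 1.14 to 1.51 on control arrays 1 to 3 and on construct arrays 1 and 2, and 0.76 to 0.91 on the others. TLN1 was higher within each vector on the arrays with the wider gap. With that gap and the one of GAPDH as a covariate, TLN1 fell by 0.55 (adjusted p = 1.08e-07). ZYX, the focal adhesion protein zyxin, had the same kind of spread, with 10.43, 10.20, 10.30, 9.78 and 9.86 against 9.89, 10.11, 9.56, 9.59 and 9.48. Its difference of -0.39 ± 0.15 did not pass (adjusted p = 0.0613). ZYX passed with the covariate (-0.30, adjusted p = 0.000532) and in the fit blocked on array number (0.00791).

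FHL2, a LIM protein that carries signals between adhesions and the nucleus and binds SRF, rose by 0.40 ± 0.051, or 1.32-fold (adjusted p = 5.81e-05). Its controls read 11.41 to 11.55 and its construct arrays 11.72 to 11.98. VCL (vinculin), which reinforces talin, differed by 0.042 ± 0.042.

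The linkers between filaments and the plasma membrane also split. RDX (radixin) rose by 0.29 ± 0.044, or 1.22-fold (adjusted p = 2.51e-04), with controls at 12.82 to 13.01 and construct arrays at 13.11 to 13.25. Its 3 other probe sets read higher too, by 0.44 ± 0.051, 0.70 ± 0.31 and 0.79 ± 0.28, and only the first of these passed. EZR (ezrin) fell by 0.097 ± 0.033 (adjusted p = 0.0367), but blocked on array number its adjusted p was 0.0559, and it kept its call in 9 of 23 alternatives. All 5 EZR probe sets read lower, by -0.10 to -0.28, and over all probe sets the 4 dimmer ones passed. The remaining member of the family, MSN (moesin), differed by -0.051 ± 0.034.

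Among the proteins that bind monomers or sever filaments, only CFL2 passed on its chosen probe set. CFL2, the muscle-type cofilin that cuts old filaments, fell by 0.25 ± 0.044, or 1.19-fold (adjusted p = 6.64e-04), and its other 2 probe sets fell too, with differences of -0.37 ± 0.060 and -0.30 ± 0.079. CFL1, the main non-muscle cofilin, differed by 0.060 ± 0.036, while another CFL1 probe set rose by 0.26 ± 0.064. The profilins PFN1 and PFN2, which feed monomers to growing ends, differed by -0.013 ± 0.034 and -0.038 ± 0.033. TMSB10, a thymosin that sequesters monomers, differed by 0.019 ± 0.030 at a level of 14.33, close to the highest signal.

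Over all probe sets of the listed genes, 35 of 120 (29.2%) passed, against 28.6% of all non-control probe sets. Of the 17 genes that passed on their chosen probe set, 13 had others. In 10 of these 13 another probe set was called the same way. ACTA2, MYL9 and FSCN1 were the exceptions with no second call.

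**Figure D3:**
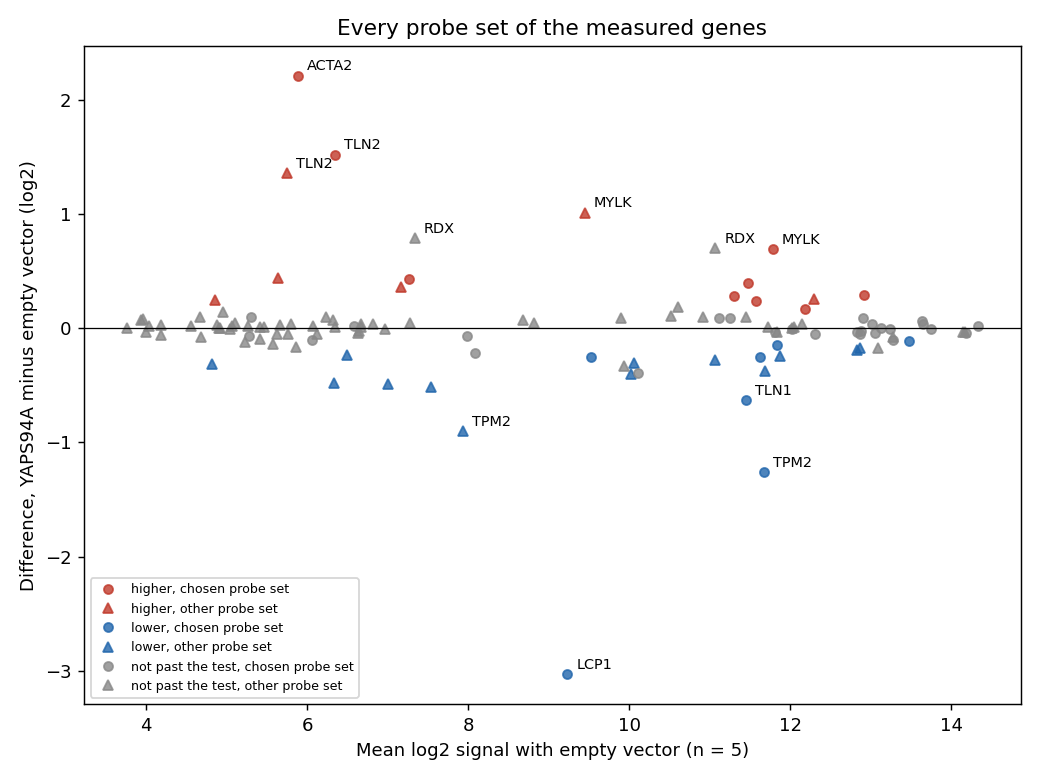
Difference between vectors (log2) against the mean log2 signal with empty vector for each of the 120 probe sets, circles for the chosen probe set of a gene and triangles for the others. Both brighter TLN2 probe sets and both brighter MYLK probe sets lie well above 0, and 2 RDX probe sets that did not pass lie at 0.70 and 0.79.

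Related genes changed unequally in 9 of the 17 pairs that could be compared, of 21 listed. Each pair was tested by an exact two-sided permutation of the arrays on the per-array difference of the genes, with p adjusted over the 17. The pairs were chosen with results known and no share over other pairs of genes was computed, so the count describes these pairs alone. With 5 arrays a group the smallest exact p is 0.0079, reached in 8 pairs (adjusted p = 0.0169). PLS3 exceeded LCP1 in its change by 3.01 ± 0.14, ACTA2 exceeded ACTG2 by 2.31 ± 0.12 and TPM1 exceeded TPM2 by 1.15 ± 0.046. TLN1 fell short of TLN2 by -2.15 ± 0.085. Smaller gaps were those of MYL9 over MYL6 (0.39 ± 0.056) and of CFL1 over CFL2 (0.31 ± 0.028). EZR fell short of RDX by -0.38 ± 0.037 and MYH9 of MYH10 by -0.17 ± 0.055.

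The gap of ACTN1 to ACTN4 was -0.24 ± 0.077 (exact p = 0.0159, adjusted p = 0.03). The 8 other pairs did not pass. They ran from TPM1 and TPM4 (-0.07 ± 0.027, exact test, adjusted p = 0.054) to TAGLN and TAGLN2 (-0.02 ± 0.063, adjusted p = 0.7937). MRTFA and MRTFB differed in their change by -0.19 ± 0.089 (exact test, adjusted p = 0.083). Permuted within the 5 pairs of same-numbered arrays, 0 pairs of genes can pass, because the smallest exact p is then 0.0625.

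**Figure D4:**
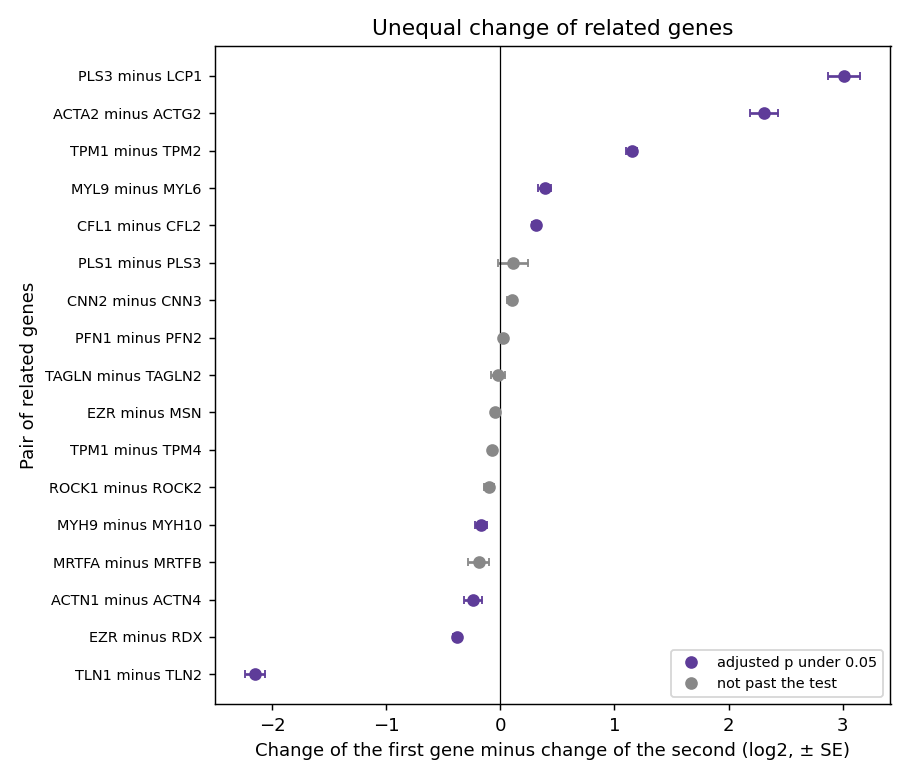
Change of the first gene minus change of the second (log2, ± SE) for the 17 pairs of related genes, in purple where the exact test passed after adjustment. The gaps of PLS3 over LCP1 (3.01), ACTA2 over ACTG2 (2.31) and TLN1 under TLN2 (-2.15) are the widest.

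Some of these genes lie in stretches of the genome that shifted together. TPM2 and TLN1 are adjacent on chromosome 9 in RefSeq order, with 0 genes between them, and share 28 of their 30 nearest genes above the median level. Of those 30 neighbours, 22 were lower and 1 higher around TPM2 (median -0.29), and 23 were lower and 1 higher around TLN1 (median -0.31). Of all 9887 genes above the median level, 2561 were lower and 2616 higher. With the neighbours' per-array median removed, TPM2 fell by 1.01 ± 0.069 (adjusted p = 1.68e-07) and TLN1 fell by 0.35 ± 0.100 (adjusted p = 0.0153).

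Around EZR 23 of 30 neighbours were lower and 3 higher (median -0.27). EZR turned to 0.17 ± 0.037 relative to them (adjusted p = 0.00214). Around RDX 17 of 30 were higher and 0 lower (median 0.15), and RDX kept 0.12 ± 0.040 (adjusted p = 0.0288). Around CFL1 16 were higher and 1 lower (median 0.23), and CFL1 turned to -0.19 ± 0.039 relative to them (adjusted p = 0.00134). MYH9 was left at -0.07 ± 0.040 (adjusted p = 0.204). The neighbours of LCP1, ACTA2, TLN2 and MYLK had medians of -0.06, 0.06, -0.01 and -0.09, and relative to them these genes differed by -2.98, 2.08, 1.51 and 0.77. What moves these stretches was not tested.

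**Figure D5:**
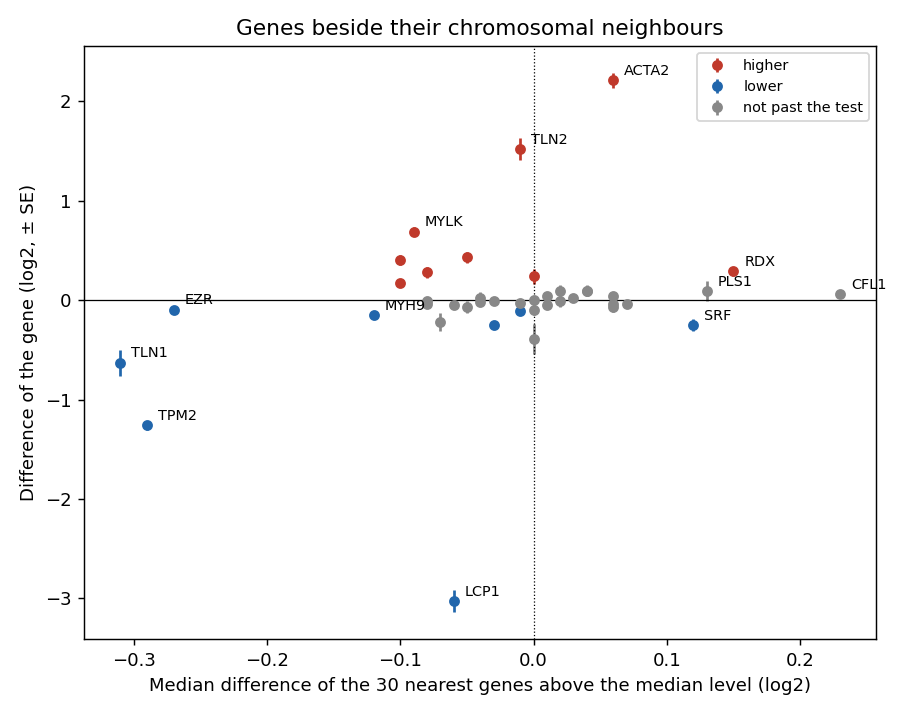
Difference of each listed gene (log2, ± SE) against the median difference of its 30 nearest genes above the median level. TPM2, TLN1 and EZR lie at neighbour medians near -0.3 and RDX and CFL1 at 0.15 and 0.23, while LCP1, ACTA2, TLN2 and MYLK lie within 0.1 of 0 on that axis.

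The genes with a CArG box showed no common direction. Of the 8 measured genes with a full box in a promoter window, FHL2 and MYLK were higher, SRF was lower, and ACTG2, ACTN1, CNN2, ROCK2 and TPM4 did not pass. These 3 of 8 (37.5%) are close to the share of all genes that passed, given above. The genes that differed by at least 1 log2 unit, ACTA2, TLN2, LCP1 and TPM2, had no full box in the windows read. CArG boxes outside these windows were not searched, and whether a probe set reads transcripts from a start with a box was not tested.

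Other SRF targets of the muscle type also divided. Of 19 measured, 4 were higher, 5 lower and 10 did not pass. The 3 with the smallest p were CSRP2, a LIM protein of smooth muscle, at -0.98 ± 0.041 (adjusted p = 4.48e-09), CCN2, the matricellular growth factor also driven by YAP1, at -1.48 ± 0.090 (1.08e-07), and ABLIM1, an actin-binding LIM protein, at 0.33 ± 0.032 (7.04e-06). The neighbours of CCN2 had a median of -0.35, and relative to them CCN2 was at -1.14 ± 0.077 (adjusted p = 1.41e-07). CCN1 and ANKRD1, other targets of YAP1, are named outside the rule of the 3 smallest p. They differed by -0.14 and 0.20, and neither passed in the main fit (adjusted p = 0.056 and 0.326). Blocked on array number both passed (adjusted p = 0.0187 and 0.00525). The block also gave more calls over all 19775 genes, with 4175 higher and 3979 lower in place of 3688 and 3484. CCN1 did not pass in 13 of 23 alternatives and ANKRD1 in 21 of 23. SRF targets of the immediate early type, which use ternary complex factors in place of MRTFs, were 1 higher and 3 lower of 7. FOSB, MCL1 and EGR1 fell, with differences of -0.23 ± 0.046, -0.21 ± 0.046 and -0.19 ± 0.046. JUNB rose by 0.20 ± 0.049 and is named after its value was seen.

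Of 28 genes of the Arp2/3 complex, capping and filament ends, 8 were higher and 3 lower. SCIN, the severing protein scinderin, rose by 1.40 ± 0.062 (adjusted p = 6.72e-09) and ARPC1B, an Arp2/3 subunit, by 0.49 ± 0.037. TWF1 (twinfilin) fell by 0.37 ± 0.038, but was at -0.07 relative to its neighbours (adjusted p = 0.187).

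Of 18 focal adhesion genes 5 were higher and 1 was lower. ITGAV, the integrin alpha-V chain, rose by 0.26 ± 0.037, TNS2, a tensin, by 0.34 ± 0.064 and PTK2, the focal adhesion kinase, by 0.19 ± 0.041, which was -0.02 relative to its neighbours. The share called was 47.4% of the muscle-type SRF targets, 57.1% of the immediate early type, 39.3% of the Arp2/3 and capping genes and 33.3% of the focal adhesion genes. Of all genes, 36.3% were called. YAP1, read as a check of the construct, rose by 0.52 ± 0.11 (adjusted p = 0.00277) on the brightest of its 3 probe sets. Whether that probe set reads the copy in the vector was not tested. Of the 30 neighbours of YAP1, 20 were higher and 4 lower (median 0.31), and relative to them YAP1 was at 0.25 ± 0.093 (adjusted p = 0.045).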

How the data were processed

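Deposited log2 signals of 54675 Affymetrix probe sets were used, from 10 arrays, 5 per vector. A NuGEN Ovation kit amplified the total RNA and the cDNA was labelled with biotin, per the labels' protocols. For the summary of probes, the normalisation and any batch, the steps are not given in the sources used here. The medians of the arrays lay between 6.25 and 6.28, so no further normalisation was applied. Arrays carry no counts, and their number limits the precision.

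Gene names came from the annotation of the platform, brought up to date with RefSeq (GRCh38.p14): 41097 had 1 symbol, 1801 several and 11777 none, and 62 controls were left out. The brightest 1-symbol probe set stood for each of 19775 genes. The vectors were compared with limma 3.58.1 in R 4.3.3 (lmFit, eBayes, two-sided, no covariate, Benjamini-Hochberg adjustment, threshold 0.05). The fit was also run on simulated data with independent noise for each gene and array. Those data lack the correlation between arrays described below, so that run does not bear on it. Alternatives (23) covered normalisation, filters, choice of probe set, variance model, array weights, block, RNA quality, neighbours and arrays left out. The neighbour alternative subtracts, per array, the median of the 30 neighbours after centring each on its own mean, and that centring was added after values without it had been seen.

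The vectors share array numbers 1 to 5. After subtraction of the group means, arrays with the same number correlated at 0.102 to 0.59, above 0.1 in 5 of 5 pairs. Of the 10 arrays, 4 correlated best with the array of their own number in the other vector. The numbers may thus pair the arrays, but this is not settled. No label states such a pairing.

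The listed genes, the other lists and the pairs were chosen with earlier results of these data known. Genes past the test with groups apart and a difference of at least 0.5 are given array by array, as are SRF, MRTFA, MRTFB and ACTB. Of each other cytoskeleton list the 3 genes with the smallest p are named. COL1A2, DCN, LYZ, LUM, PDGFRA and other markers were named after their values were seen. The values of some listed genes and of one other list are not reported here.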

Additional observations from a re-analysis of the deposited data

Results flagged for a closer look

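Of 86 groups of 5 arrays tested for 1 far value (42 listed genes and YAP1, each vector apart), 3 held one, and chance alone gives about 1 in 20 groups. Construct array 2 was the highest for ACTN4, at 12.02 against 11.81 for the next. Control array 2 was the highest for PLS3, at 12.93 against 12.87. Construct array 2 was the lowest for PFN1, at 13.16 against 13.24. Construct array 2 also had the widest gap between 3′ and 5′ ACTB signal of its vector (1.43), and whether that gap bears on these values was not tested.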

How the results depend on the processing

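Over the 42 listed genes and up to 23 alternatives each, 903 of 947 values kept their direction and their side of the threshold, or did not pass in either setting. Of the others, 20 no longer passed, 21 newly passed and 3 reversed. Among values that did not pass in either setting, 34 changed sign. The calls of ACTA2, MYLK, TPM2, FHL2, SRF, TLN1, TLN2, LCP1, RDX, CFL2 and FSCN1 held in each alternative that gave them a value. Of the 25 genes not past the test, 7 passed in at least 1 alternative. With 1 array left out, 8 to 9 listed genes were higher and 7 to 9 lower, 21 to 23 genes of the other lists were higher and 13 to 17 lower, and 7 to 11 pairs of related genes passed. Without _x_at and _s_at probe sets the counts of lower and higher listed genes were 5 in place of 8 and 6 in place of 9, with fewer genes tested, and MYL9 turned to -0.016, DIAPH1 to -0.011 and PARVB to 0.139. With the neighbour median removed, EZR turned to 0.174, CFL1 to -0.195, ARHGDIB to 0.169, ARPC4 to -0.138 and PTK2 to -0.017. CALD1 did not pass when its probe sets were averaged (0.062, adjusted p = 0.259) and TPM1 without the arrays numbered 1 and 2 (0.0513). With the array number as a replicate block, 9 listed genes were higher and 9 lower, and 0 pairs of related genes passed, since 5 pairs of arrays cannot reach the threshold. Other than for EZR, MRTFA and ZYX, the block changed no call of a listed gene. In the other lists it gave 26 higher and 17 lower in place of 23 and 15, with CCN1, ANKRD1, ENAH, SRC and ILK newly past the test. Over all 19775 genes the block gave 4175 higher and 3979 lower in place of 3688 and 3484.

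A dim probe set limits what can be seen, and the highest signals, as for ACTB and TMSB10, leave little room above.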
